A study of Mus musculus with 9 samples.

Results

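Long noncoding RNAs (lncRNAs) are transcripts with no recognised long reading frame. Some stay in the nucleus and act on splicing or chromatin, some silence a neighbouring gene on the same chromosome, and others are mainly the precursors of small nucleolar RNAs (snoRNAs) or microRNAs. Many start next to the promoter of a protein-coding gene, and their levels are typically low and often tied to a cell type. Here the lncRNAs expressed in sorted skeletal stromal cells of the mouse were described. A gene was taken as a member if its biotype in the table was lincRNA, antisense, processed_transcript, sense_intronic, sense_overlapping or bidirectional_promoter_lncRNA and if it reached 1 FPKM (a fragment count divided by transcript length and library total) in at least 3 of the 9 libraries. Of 1435 genes with these biotypes, 489 were above 0 in at least 1 library, 128 reached 1 FPKM in at least 1, and 59 were members, out of 8329 genes in the table. 1 further gene that met the threshold was set aside by name and is not analysed here. The members were 23 lincRNA, 17 antisense, 13 processed_transcript and 6 bidirectional_promoter_lncRNA genes. None of the 51 sense_intronic and 2 sense_overlapping genes passed. The value that decided was the library ranked 3 from the top: it was 0.983 FPKM in C920021L13Rik, just outside, and 1.01 FPKM in 9330179D12Rik, just inside.

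The libraries came from CD45-Ter119-CD31-CD51+CD200+ cells of WT C57BL/6J mice, with 3 libraries per group. The steady-state groups, taken at day 0, were mesenchymal stem cells of the bone marrow (BM-MSCs) and skeletal stem cells of the periosteum (P-SSCs), the membrane that covers the bone. Graft P-SSCs were taken from the periosteum of a femur 3 days after it had been placed under the skin of a recipient mouse that had received no conditioning. Ages were not given in the labels, and in both steady-state groups the label of replicate 2 names a pair of preparations. RNA was selected on its poly(A) tail, so transcripts without a tail are under-represented. Of 22 listed stromal markers 2 were in the table. Postn, a stromal matrix gene, was at 90.6 to 879 FPKM in every library, and Twist1 was at 0.909 to 3.17 FPKM. The endothelial, cartilage and bone marker genes listed for a check of the sort were not in the table and were not analysed here.

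Several facts of the libraries bear on the lncRNAs. FPKM values times gene length gave whole fragments for all 59 members, and library totals ranged from 16890241 to 21315438 fragments. By these fragments 24 of the 59 members had a median under 20 fragments per library and 8 had 100 or more. The 8 blood cell markers in the table, which the sort should remove, summed to 1202, 1169.9 and 2826 FPKM in the BM-MSC libraries, to between 16.6 and 81.2 FPKM in P-SSCs and to between 37.9 and 96.9 FPKM in graft P-SSCs. P-SSC replicate 3 stood apart from the other P-SSC libraries: 27.5% of the 1948 genes tested lay more than 1 log2 unit from the mean of the other P-SSC libraries, against 14.5% for replicate 1 and 21.4% for replicate 2. Across genes, deviations from the gene mean rose with the GC content of the transcript start in P-SSC replicate 3 (Pearson r = 0.285 over 1947 genes, which are not independent replicates), as they did in the graft libraries (0.139 to 0.265), and fell with it in the remaining libraries (-0.211 to -0.14). Gm23935, a gene at ribosomal RNA-like sequence, was at 26945, 36131 and 56409 FPKM in BM-MSCs and 19225, 38736 and 76882 FPKM in P-SSCs. In graft P-SSCs it was at 58693 to 68852 FPKM. All genes of a library summed to 132863 FPKM in P-SSC replicate 1 and 180428 FPKM in P-SSC replicate 3. Its part in the differences between libraries was not tested. The library strand was not stated, so reads of a lncRNA and of a gene that overlaps it on the other strand cannot be told apart.

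4 promoters and 3 microRNAs are printed here because the results turn on the genes that carry them. The promoters are RefSeq windows on GRCm38.p6, each from 250 bases before to 50 bases after the start site, written 5' to 3' on the strand of the gene. AW112010 and Malat1 had large decreases in graft P-SSCs, Gm46323 was found in P-SSCs and not in BM-MSCs, and Crnde moved in opposite directions in the steady-state and graft comparisons. Capitals mark the motifs found.
AW112010, chr19:11050517-11050816, minus strand: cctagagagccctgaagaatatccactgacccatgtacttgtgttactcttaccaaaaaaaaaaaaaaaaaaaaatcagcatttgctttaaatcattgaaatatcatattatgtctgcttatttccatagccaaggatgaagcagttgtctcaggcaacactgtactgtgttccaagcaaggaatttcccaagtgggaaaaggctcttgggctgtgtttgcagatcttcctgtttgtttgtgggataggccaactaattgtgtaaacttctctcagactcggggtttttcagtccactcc
Malat1, chr19:5802623-5802922, minus strand: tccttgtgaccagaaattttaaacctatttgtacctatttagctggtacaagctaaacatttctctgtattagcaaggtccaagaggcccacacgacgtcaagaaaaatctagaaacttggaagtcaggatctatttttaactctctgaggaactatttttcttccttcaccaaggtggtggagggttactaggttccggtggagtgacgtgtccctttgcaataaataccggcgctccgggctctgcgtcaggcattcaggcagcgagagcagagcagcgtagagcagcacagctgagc
Gm46323, chr12:9371176-9371475, plus strand: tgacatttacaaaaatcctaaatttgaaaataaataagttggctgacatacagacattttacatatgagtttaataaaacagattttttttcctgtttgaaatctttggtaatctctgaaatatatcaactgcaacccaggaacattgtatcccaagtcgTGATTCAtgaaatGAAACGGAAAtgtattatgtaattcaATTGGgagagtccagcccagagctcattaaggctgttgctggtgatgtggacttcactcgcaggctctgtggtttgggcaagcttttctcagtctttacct
Crnde, chr8:92356071-92356370, minus strand: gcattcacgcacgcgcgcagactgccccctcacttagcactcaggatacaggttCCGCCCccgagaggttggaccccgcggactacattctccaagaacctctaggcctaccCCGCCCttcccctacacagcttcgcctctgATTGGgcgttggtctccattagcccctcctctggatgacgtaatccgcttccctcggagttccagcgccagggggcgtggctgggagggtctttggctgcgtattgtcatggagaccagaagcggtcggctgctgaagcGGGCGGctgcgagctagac
The motifs searched on both strands were the interferon-stimulated response element (ISRE, a repeat of GAAA with any 2 bases between), the gamma-activated site (GAS, TTCNNNGAA), the E2F site (TTTGGCGC), the CCAAT box, the GC box (GGGCGG), the TATA box (TATAAA), the cyclic AMP response element (CRE, TGACGTCA) and the AP-1 site (TGANTCA). The Gm46323 promoter held an AP-1 match 90 bases before the start site, an ISRE match 77 bases before it and a CCAAT match 51 bases before it, none of which overlapped. The Crnde promoter held 3 GC boxes and a CCAAT match, and the AW112010 and Malat1 windows held none of the 8 motifs. These are matches of letters, not shown binding sites.

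39 of the 59 members had a promoter in the RefSeq table. Their median GC content was 60.7% and their median number of CpG dinucleotides 19, against 52.7% and 7 over the 27025 promoters of the table. A GC box was found in 21 of the 39 (53.8%, against 35.9% of all promoters) and CCAAT in 18 (46.2%, against 37.9%). TATAAA was found in 3 (7.69%, against 14.2%), GAS in 4 (10.3%, against 8.47%), AP-1 in 2 (5.13%, against 7.93%), CRE in 1 (2.56%, against 1.88%) and ISRE in 1 (2.56%, against 3.49%). The E2F motif was in none of the 39 and in 0.537% of all promoters. The printed AW112010, Malat1 and Gm46323 windows were among the poorer in GC, at 40.0%, 47.0% and 36.3%, while that of Crnde was at 62.7% with 22 CpG.

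Most members lay close to a protein-coding gene. In 21 of the 59 the start site lay within 1 kb of the start of a coding gene on the opposite strand. The median distance was 136 bases (10 to 353), without overlap of that gene, the arrangement of a shared, bidirectional promoter. Another 16 overlapped a coding gene on the opposite strand, 9 had one within 10 kb in another arrangement, and 13 had none. Some head-to-head members also overlapped a further coding gene on the opposite strand, among them E130307A14Rik (Traf3ip2) and 3110056K07Rik (Psma3). With these, 20 members overlapped a coding gene on the opposite strand. Among the head-to-head members were 4632427E13Rik beside Rab30, a small GTPase, 2010320M18Rik beside Pik3r2, a regulatory subunit of phosphoinositide 3-kinase, and E130307A14Rik beside Rev3l, the catalytic subunit of a translesion DNA polymerase. Airn lay antisense to Igf2r, which it silences on the paternal chromosome, and Crnde lay 1505 bases from Irx5, a homeobox gene, on the opposite strand. These coding genes were not in the table and were not analysed here.

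Small RNAs were nested in 4 members on the same strand. Snhg15 held Snora9, 2700038G22Rik held Snord93, and Snhg20 held a small Cajal body RNA and Mir6516. 3110039I08Rik, a transcript of chr9:41327077-41716994 on the plus strand with up to 9 exons, held Mir100, Mirlet7a-2 and Mir125b-1, a cluster known from many cell types. It was named for its position and not by the rule for named genes. Of its 5 mature forms in the RefSeq table, 1 per microRNA gene is shown with the seed, bases 2 to 8, in capitals.
miR-100-5p, chr9:41531437-41531458: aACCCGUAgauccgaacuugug
let-7a-2-3p, chr9:41536777-41536797: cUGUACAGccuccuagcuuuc
miR-125b-5p, chr9:41581940-41581961: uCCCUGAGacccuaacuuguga
These 3 forms have different seeds. For Mirlet7a-2 only the 3p form was found, so the seed of its 5p form is not shown. The mature forms were not measured, since the libraries hold poly(A) RNA. The host transcript was at 1.21, 1.84 and 2.42 FPKM in BM-MSCs, 3.23, 1.57 and 1.43 in P-SSCs and 3.15, 1.98 and 1.85 in graft P-SSCs, with overlap between all groups. Its log2 fold change in P-SSCs against BM-MSCs was 0.10 with a 95% confidence interval of -0.63 to 0.84, and its call missed the threshold in every comparison.

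The lncRNAs were expressed at low levels. The median over the 59 members of the mean FPKM was 1.57 (0.571 to 79.4), against 10.2 over 1792 protein-coding genes that passed the same filter. 5 members (8.5%) had a mean of at least 10 FPKM, against 50.3% of the coding genes, and 35 (59.3%) were under 2 FPKM, against 14.6%. 12 members reached 1 FPKM in all 9 libraries, and 23 were at 0 in at least 1. The number at 1 FPKM or more was 42, 37 and 42 in the BM-MSC libraries, 42, 34 and 40 in P-SSCs and 31, 31 and 28 in graft P-SSCs. Their summed FPKM was 477, 450.2 and 397 in BM-MSCs, 271, 237 and 280 in P-SSCs and 172, 178 and 168 in graft P-SSCs. The groups did not overlap in this sum. AW112010 made up the larger part of the difference, since it alone was at 154 to 201 FPKM in BM-MSCs and at 3.40 to 4.94 FPKM in graft P-SSCs.

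**Figure D1:**
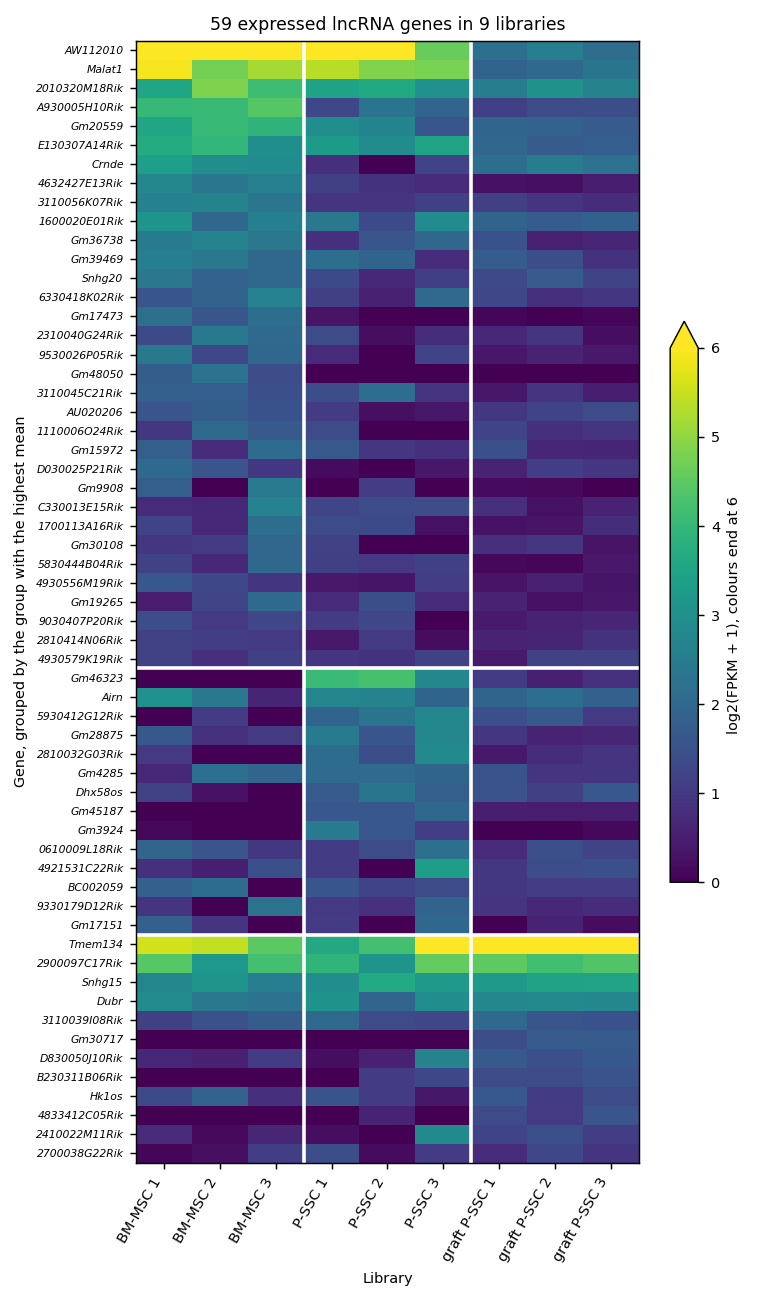
Heat map of the 59 lncRNA genes (rows) in the 9 libraries (columns), coloured by log2(FPKM + 1) with the scale ending at 6. Rows are grouped by the group with the highest mean, which was BM-MSCs for 33 genes, P-SSCs for 14 and graft P-SSCs for 12.

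Several lncRNAs with described functions were among the 10 members with the highest mean FPKM. 2900097C17Rik, the mouse counterpart of Norad, which binds Pumilio proteins and protects chromosome number, was at 20.8, 8.21 and 17.4 FPKM in BM-MSCs, 14.1, 7.65 and 22.6 in P-SSCs and 22.0, 17.2 and 19.6 in graft P-SSCs. Snhg15, a snoRNA host gene, was at 5.71, 7.64 and 4.90 FPKM in BM-MSCs, 6.66, 11.8 and 8.31 in P-SSCs and 8.43, 9.96 and 10.4 in graft P-SSCs. Dubr, a lncRNA of muscle differentiation, was at 3.87 to 6.43, 2.86 to 7.42 and 5.86 to 6.14 FPKM in the same order. These values overlapped between groups, except that the graft libraries lay above the BM-MSC libraries for Snhg15. None of the 3 was called in any comparison. Their log2 fold changes lay between -0.09 and 0.59, and the intervals still allowed up to 1.43 for 2900097C17Rik, 1.24 for Snhg15 and 1.08 for Dubr. Airn, the imprinted antisense RNA, was at 7.13, 4.27 and 0.550 FPKM in BM-MSCs, 5.59, 5.44 and 2.84 in P-SSCs and 2.84, 3.47 and 2.65 in graft P-SSCs. The lowest of these was a BM-MSC library, and the interval of its log2 fold change in P-SSCs against BM-MSCs ran from -0.81 to 1.68.

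The first comparison asked how P-SSCs differ from BM-MSCs at steady state. Of the 59 lncRNAs, 18 were called by limma at a Benjamini-Hochberg adjusted p under 0.05, 6 higher and 12 lower in P-SSCs. Among all 1948 genes tested 24.2% were called, 9.8% higher and 14.4% lower, so the share of lncRNAs called (30.5%) was near the background. The groups did not overlap for 20 members, 6 higher and 14 lower, against 32.1% of all genes, 12.9% higher and 19.2% lower. The median log2 fold change of the members was -0.28, against -0.06 over all genes. The threshold itself shapes these counts: 19 of the 59 members reached 1 FPKM in all 3 libraries of 1 group and in fewer than 3 others, 8 through BM-MSCs, 6 through P-SSCs and 5 through graft P-SSCs, and for a comparison that involves that group their values are given with no test. Of the 18 called here, 9 were such members, and the other 40 members gave 2 higher and 7 lower calls. The threshold shaped some of these calls too. D030025P21Rik, called lower, reached 1 FPKM in no P-SSC library and passed only with BM-MSC libraries, where it was high. In such bulk samples fewer cells that carry a transcript and less of it per cell cannot be told apart.

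Gm46323, a lincRNA with 4 exons at chr12:9371438-9473770 on the plus strand, was high in P-SSCs. It had 0 fragments in each of the 3 BM-MSC libraries and was at 15.96, 18.0 and 5.86 FPKM in P-SSCs. The groups did not overlap. Against the limit that a count of 0 allows, 3 fragments over the BM-MSC group, it was at least 149-fold higher in P-SSCs. It reached 1 FPKM in 1 library outside P-SSCs, so its place in the set rests on the group in which it was high, and no test is given.

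On the log2(FPKM + 1) scale Crnde and A930005H10Rik had the largest decreases among the called members. Crnde, first described as raised in colorectal cancer and placed at chr8:92326033-92356120 on the minus strand, was at 9.53, 6.71 and 6.46 FPKM in BM-MSCs and at 0.772, 0 and 1.31 FPKM in P-SSCs. A930005H10Rik (chr3:115881581-115888130, minus strand), which overlaps Dph5, an enzyme of diphthamide synthesis, was at 15.3, 15.4 and 20.4 FPKM in BM-MSCs and at 1.48, 3.93 and 2.86 FPKM in P-SSCs. Neither overlapped between the groups. Mean FPKM was 10.9-fold lower for Crnde (log2 fold change -2.40, SE 0.36, adjusted p = 0.000862 from limma) and 6.18-fold lower for A930005H10Rik (-2.31, SE 0.33, adjusted p = 0.000612). Without P-SSC replicate 3 the ratio for Crnde was 19.6.

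AW112010 was the most abundant lncRNA of the set. It is an interferon-inducible RNA of immune cells, with 3 exons at chr19:11047617-11050566 on the minus strand. It was at 183, 201 and 154 FPKM in BM-MSCs and at 74.9, 66.3 and 23.3 FPKM in P-SSCs, with no overlap and the lowest value in P-SSC replicate 3. Mean FPKM was 3.27-fold lower in P-SSCs, and the log2 fold change was -1.84 (SE 0.39, adjusted p = 0.00617 from limma). The blood cell markers fell in the same direction between these groups (4 of the 7 tested were called lower and none higher), and their part in this difference was not tested.

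3 more named members had lower values in P-SSCs. 4632427E13Rik, the divergent transcript of Rab30 (chr7:92734166-92741468, minus strand), was at 5.88, 4.10 and 5.09 FPKM in BM-MSCs and 1.198, 0.833 and 0.651 in P-SSCs, and is given with no test since it entered the set through BM-MSCs. Gm20559 (chr6:3333194-3346128, minus strand) was at 10.6, 15.8 and 14.04 FPKM in BM-MSCs and 6.62, 5.55 and 1.99 in P-SSCs (log2 fold change -1.43, limma adjusted p = 0.0209). Snhg20, a host of a small Cajal body RNA, was at 4.18, 2.72 and 3.07 FPKM in BM-MSCs and 1.54, 0.617 and 1.15 in P-SSCs (log2 fold change -1.05, adjusted p = 0.0262). The groups did not overlap for any of the 3. The calls of Gm20559 and Snhg20 were less stable: the call of Gm20559 was lost in 5 of the 20 alternative settings (adjusted p = 0.0536 to 0.0904 from limma), among them without BM-MSC replicate 2 (0.0657) and without BM-MSC replicate 3 (0.059). The call of Snhg20 was lost in 9 of the 19 that tested it (adjusted p = 0.0511 to 0.104 from limma). These were the fits without BM-MSC replicate 1 (0.0751), P-SSC replicate 2 (0.0648), graft P-SSC replicate 1 (0.0536) or graft P-SSC replicate 3 (0.0511), with only the 2 groups compared (0.104), with no filter (0.068), with the same sum in each library (0.0659), with the replicate block (0.0538) and with limma voom on the recovered fragments (0.0833).

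The other called members were at lower levels and were chosen for mention after their values were seen. Gm17473, a transcript antisense to Angpt1, which encodes a niche factor of blood stem cells, was at 3.62, 2.06 and 3.48 FPKM in BM-MSCs and at 0.236, 0 and 0 in P-SSCs. Gm48050 had 0 fragments in every P-SSC and graft library and was at 2.42, 3.87 and 1.69 FPKM in BM-MSCs. D030025P21Rik, antisense to Ltbp2, a matrix protein gene, was at 3.15, 1.97 and 0.949 FPKM in BM-MSCs and at 0.128, 0 and 0.298 in P-SSCs. These 3 lay lower in every P-SSC library than in any BM-MSC library. In the other direction, Gm45187, antisense to the autophagy gene Uvrag, had 0 fragments in every BM-MSC library and was at 2.09, 2.11 and 3.08 FPKM in P-SSCs. 5930412G12Rik, head to head with the Wnt receptor gene Fzd10, was at 0, 1.09 and 0 FPKM in BM-MSCs and at 2.80, 3.92 and 5.94 in P-SSCs, and Dhx58os, antisense to the RNA sensor gene Dhx58, was at 1.23, 0.233 and 0 against 2.29, 4.03 and 2.51 FPKM. These 3 also did not overlap between the groups. Gm17473 and Gm48050 were at 1 FPKM or more in BM-MSCs and in no other library, and Gm3924 and Gm45187 in P-SSCs and in no other library, so that such members entered the set through 1 group.

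**Figure D2:**
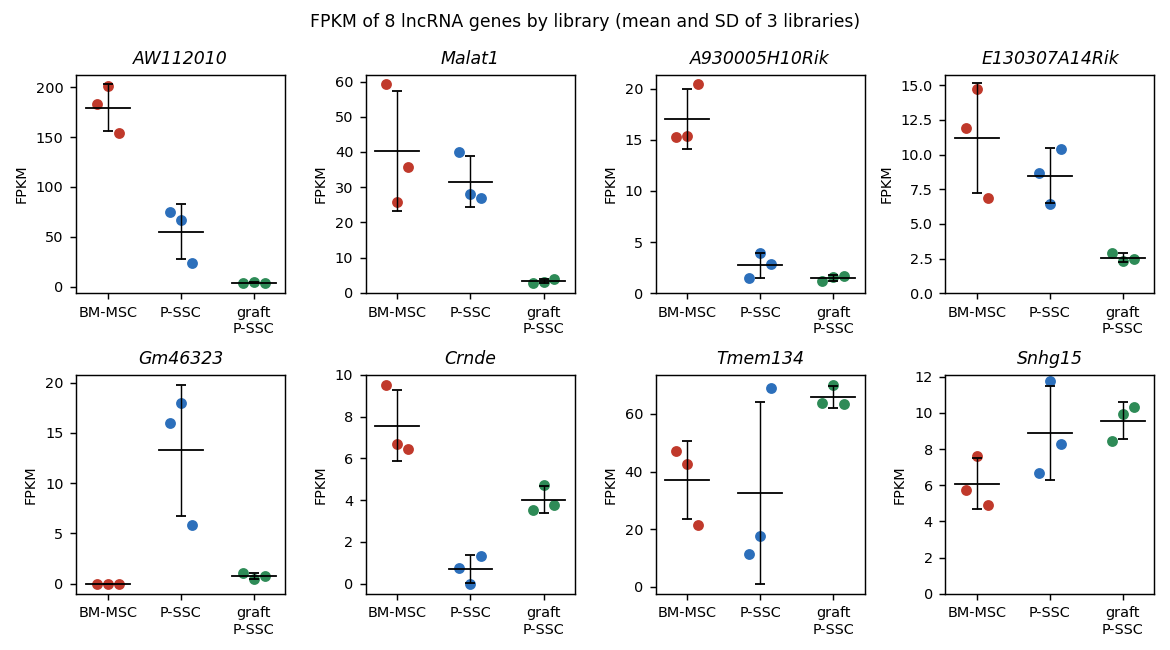
FPKM of 8 lncRNA genes in each library (points, coloured by group), with the mean (line) and SD of the 3 libraries of each group (bars). AW112010 fell from 154 to 201 FPKM in BM-MSCs to 3.40 to 4.94 FPKM in graft P-SSCs, and P-SSC replicate 3 lay with the graft libraries for Tmem134 at 69.0 FPKM.

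The second comparison asked what had changed in P-SSCs 3 days after transplantation. It shares the P-SSC libraries with the first. Of the 59 lncRNAs 11 were called, 3 higher and 8 lower in graft P-SSCs, while of all genes tested 34.1% were called, 22.6% higher and 11.5% lower. The shares of the members were 5.08% higher and 13.6% lower, and the members' median log2 fold change was -0.24 where that of all genes was 0.26. The groups did not overlap for 21 members, 5 higher and 16 lower, against 50.6% of all genes, 31.5% higher and 19% lower. Of the 11 called, 7 had entered the set through 1 of these groups, and the 40 members not assigned to 1 group gave 1 higher and 3 lower calls. Without P-SSC replicate 3 the count of called members was 17 (28.8%), of which 7 were higher and 10 lower, and the share of all genes called rose to 45.8%.

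AW112010 and Malat1 fell in graft P-SSCs. Malat1, an abundant nuclear RNA of splicing speckles (chr19:5795690-5802672, minus strand), was at 40.0, 28.0 and 26.9 FPKM in P-SSCs and at 2.76, 3.14 and 3.996 FPKM in graft P-SSCs. The groups lay far apart. Mean FPKM was 9.58-fold lower, the log2 fold change was -2.91 (SE 0.32, adjusted p = 0.000146 from limma), and the call held in all 20 alternative settings. In fragments these were 1474, 927 and 954 in P-SSCs and 91, 125 and 134 in graft P-SSCs, if the length in the authors' FPKM was 1867 bases, the shortest that gave whole fragments. A multiple of that length would scale every library alike. AW112010 fell further, from 74.9, 66.3 and 23.3 to 3.67, 4.94 and 3.40 FPKM, with a 13.7-fold lower mean (log2 fold change -3.33, SE 0.39, adjusted p = 0.00021). Here the summed FPKM of the blood cell markers overlapped between the groups, and of the 7 tested the macrophage markers Adgre1 and Csf1r were called higher in graft P-SSCs. Myl1, the muscle marker tested, was called lower (from a mean of 3.67 to 0.245 FPKM, log2 fold change -1.79, adjusted p = 0.0306), and the 2 muscle markers in the table summed to 2.76 to 10.1 FPKM in P-SSCs and 0.645 to 1.26 FPKM in graft P-SSCs. The part of these cell types in the differences was not tested.

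Gm46323 and Crnde went back towards their BM-MSC levels. Gm46323 was at 1.08, 0.448 and 0.798 FPKM in graft P-SSCs against 5.86 to 18.0 FPKM in P-SSCs, a 17.1-fold lower mean, given with no test for the reason above. Crnde was at 3.53, 4.75 and 3.78 FPKM against 0 to 1.31 FPKM (log2 fold change 1.64, SE 0.36, adjusted p = 0.00691 from limma), a 5.78-fold higher mean, or 10.4-fold without P-SSC replicate 3. Neither overlapped between P-SSCs and graft P-SSCs. Against BM-MSCs, the graft values of Crnde lay below all 3 libraries (log2 fold change -0.76, 95% confidence interval -1.57 to 0.05) and those of Gm46323 above them (0.81, -0.06 to 1.69), and neither was called there. Crnde was called lower in graft P-SSCs than in BM-MSCs after the GC correction (-1.67, adjusted p = 0.00277 from limma). It was also called lower with quantile normalization (-1.06, 0.0282) and with only the 2 groups compared (-0.76, 0.0338). Gm46323 was called higher there with limma voom on the recovered fragments (4.12, adjusted p = 0.00572) and with a pseudocount of 0.1 (3.06, 0.0028). It was also called higher with only the 2 groups compared (0.81, 0.00618), without P-SSC replicate 3 (0.81, 0.0167) and after the GC correction (1.07, 0.0287). Against the limit that a count of 0 allows, Gm46323 was at least 8.53-fold higher.

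E130307A14Rik, the divergent transcript of Rev3l (chr10:39621412-39732007, minus strand), also fell in graft P-SSCs. It was at 8.63, 6.404 and 10.4 FPKM in P-SSCs and at 2.94, 2.30 and 2.46 FPKM in graft P-SSCs, without overlap. Its log2 fold change was -1.39 (SE 0.33, adjusted p = 0.0101 from limma). Gm30717 and 4833412C05Rik, chosen after their values were seen, were the members at 1 FPKM or more in every graft library and in no other. Gm30717 had 0 fragments in all 6 steady-state libraries and 15, 24 and 21 fragments in graft P-SSCs, at 1.72, 2.28 and 2.37 FPKM. 4833412C05Rik had 27, 21 and 35 fragments in graft P-SSCs and 9 in P-SSC replicate 2, the only steady-state library in which it was found. Both are lincRNAs with 4 exons and no coding gene within 10 kb.

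The third comparison set graft P-SSCs against BM-MSCs, with which they share neither tissue nor time. 19 of the 59 lncRNAs were called, 3 higher and 16 lower, against 41.9% of all genes, 25.7% higher and 16.2% lower. The median log2 fold change was -0.63 for the members and 0.28 for all genes, and 33 members did not overlap between the groups, 9 higher and 24 lower, against 64.5% of all genes, 40.5% higher and 24% lower. Of the 19 called, 10 had entered the set through 1 of these groups, including the 3 higher ones. The 40 members not assigned to 1 group gave 0 higher and 9 lower calls. These calls are not free of the threshold, since 4930556M19Rik, called lower, reached 1 FPKM in no graft library and passed only with BM-MSC libraries. The count of called members was 29 (49.2%, 10 higher, 19 lower) without P-SSC replicate 3, which enters this comparison only through the shared estimate of spread, and 30 (50.8%) when only the libraries of these 2 groups were fitted. The shares of all genes called in these fits were 53.3% and 54.8%.

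AW112010, the most abundant member, had the largest decrease on the log2(FPKM + 1) scale. Its mean FPKM was 44.8-fold lower in graft P-SSCs than in BM-MSCs (log2 fold change -5.18, SE 0.39, adjusted p = 7.88e-06 from limma). Of the 7 blood cell markers tested, 4 were also called lower in graft P-SSCs than in BM-MSCs, and 1, Csf1r, was called higher (2.07). Among the lower ones were Hba-a2, a hemoglobin chain (log2 fold change -8.39), and Lyz2, a lysozyme of myeloid cells (-2.90). Within BM-MSCs AW112010 was lowest in replicate 3, where the blood cell markers summed highest. The 8 in the table summed to 1169.9 to 2826 FPKM in BM-MSCs and 37.9 to 96.9 FPKM in graft P-SSCs, with none at 0 in every library of either group, and their part in this difference was not tested. Malat1 was at 59.2, 25.8 and 35.8 FPKM in BM-MSCs and 12.2-fold lower in the graft (-3.19, SE 0.32, adjusted p = 5.22e-05), although the steady-state groups overlapped for it. A930005H10Rik was at 1.18 to 1.71 FPKM in graft P-SSCs, below every BM-MSC library (-2.85, adjusted p = 0.000127), and 4632427E13Rik, with no test, at 0.189 to 0.419 FPKM. 2010320M18Rik, the divergent transcript of Pik3r2, was at 10.8, 27.6 and 16.7 FPKM in BM-MSCs, 10.2, 11.5 and 7.25 in P-SSCs and 4.82, 7.35 and 5.41 in graft P-SSCs. It was called only between the outer groups (log2 fold change -1.42, adjusted p = 0.0108 from limma). Over the 3 comparisons, AW112010 was the only member called lower in each, as were 1.28% of all genes. Another 7 members (11.9%, against 6.47% of all genes) were called lower in both P-SSCs and graft P-SSCs than in BM-MSCs and not called between P-SSCs and graft P-SSCs. Of these 7, 5 had entered the set through BM-MSCs. Called higher in P-SSCs than in both other groups, and not called between those other groups, were 4 members (6.78%, against 2.82%). All 4 had entered the set through P-SSCs. Since the threshold chose these members for the group in which they were high, nothing is read from these shares. 29 members (49.2%, against 43.9%) were called in none.

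**Figure D3:**
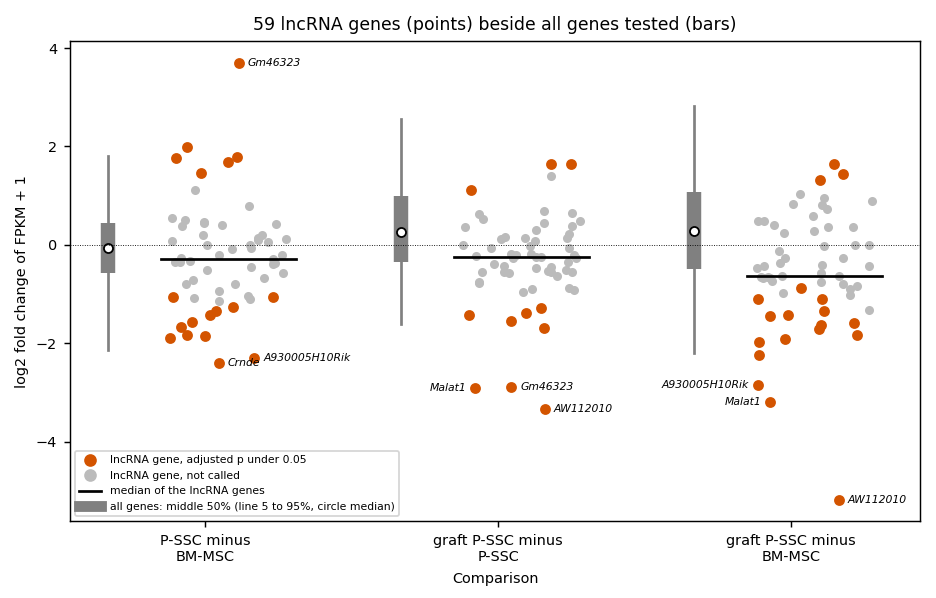
Log2 fold changes of FPKM + 1 of the 59 lncRNA genes (points, orange where the adjusted p was under 0.05) in the 3 comparisons, beside all 1948 genes tested (grey bars, the middle 50% with lines from 5% to 95% and a circle at the median). The medians of the lncRNA genes (black lines) were -0.28, -0.24 and -0.63, where those of all genes were -0.06, 0.26 and 0.28.

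The called members were also counted by position and biotype, beside shares over all genes of 9.8% higher and 14.4% lower, then 22.6% and 11.5%, then 25.7% and 16.2% in the 3 comparisons in the order above. Of the 21 head-to-head members, 2 were higher and 2 lower in the first, 0 and 2 in the next, and 0 and 6 in the last. The 16 that overlapped a coding gene on the opposite strand and were not head to head gave 2 and 4, 0 and 1, and 0 and 4. Of the 13 with no coding gene within 10 kb, 1 was higher and 5 lower in the first, 2 and 3 in the next, and 2 and 4 in the last. The 9 with a coding gene within 10 kb in another arrangement gave 1 and 1, 1 and 2, and 1 and 2. By biotype, the 13 processed_transcript members gave 0 and 5, 1 and 0, and 0 and 6. The 23 lincRNA members gave 4 and 3, 2 and 6, and 3 and 5. The 17 antisense members gave 2 and 3, 0 and 2, and 0 and 4, and the 6 bidirectional_promoter_lncRNA members 0 and 1, 0 and 0, and 0 and 1. No difference between these classes was tested.

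The distance of P-SSC replicate 3 from its group was seen in the lncRNAs to about the same extent as in other genes, with 15 members (25.4%, against 27.5% of all genes) more than 1 log2 unit away. In it 9 members were more than 1 log2 unit above and 6 more than 1 unit below the mean of the other P-SSC libraries, where replicate 2 had 1 above and 11 below and the graft libraries had 0 of either. Tmem134 was at 11.3 and 17.6 FPKM in P-SSC replicates 1 and 2 and at 69.0 in replicate 3, where graft P-SSCs were at 63.6, 70.1 and 63.4 and BM-MSCs at 47.0, 42.7 and 21.5. This gene, a processed_transcript in the table, is listed by RefSeq as protein-coding and encodes a membrane protein. It was not called with all libraries (graft P-SSCs against P-SSCs 1.40 on the log2 scale, adjusted p = 0.0812 from limma), and was called without P-SSC replicate 3 (2.14, adjusted p = 0.000458). 4921531C22Rik, 2410022M11Rik and D830050J10Rik, chosen after their values were seen, were at 9.24, 6.30 and 5.45 FPKM in that library and at no more than 1.09, 0.159 and 0.457 FPKM in the other P-SSC libraries. The first 300 bases of these 4 genes had GC contents of 64.3% to 74.3%, against a median of 56.0% over the members. The other 5 members that far above ranged from 52.7% to 73.3% and the 6 that far below from 37.0% to 59.3%, with 4 of these 6 at 45.7% or less. The distance of this library from the mean of the other P-SSC libraries rose with GC content, with a Pearson r of 0.558 over the 59 members and 0.402 over 1947 genes, which share libraries and are not independent replicates. As deviations from the mean of all 9 libraries, r over the members was -0.536, -0.49 and 0.192 in P-SSC replicates 1, 2 and 3, 0.339 to 0.438 in graft P-SSCs and -0.139 to 0.0133 in BM-MSCs. Of the named members lower in graft P-SSCs than in P-SSCs, Malat1, AW112010 and Gm46323 had 38.0%, 41.3% and 45.7% GC in the first 300 bases. E130307A14Rik, also lower there, had 63.3%. The calls of Malat1 and AW112010 in that comparison held after the GC correction. The part of GC content in these differences was not tested beyond the corrected fit, in which 17, 10 and 23 members were called in the 3 comparisons (28.8%, 16.9% and 39.0%), against 25.1%, 34.6% and 43.6% of all genes.

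**Figure D4:**
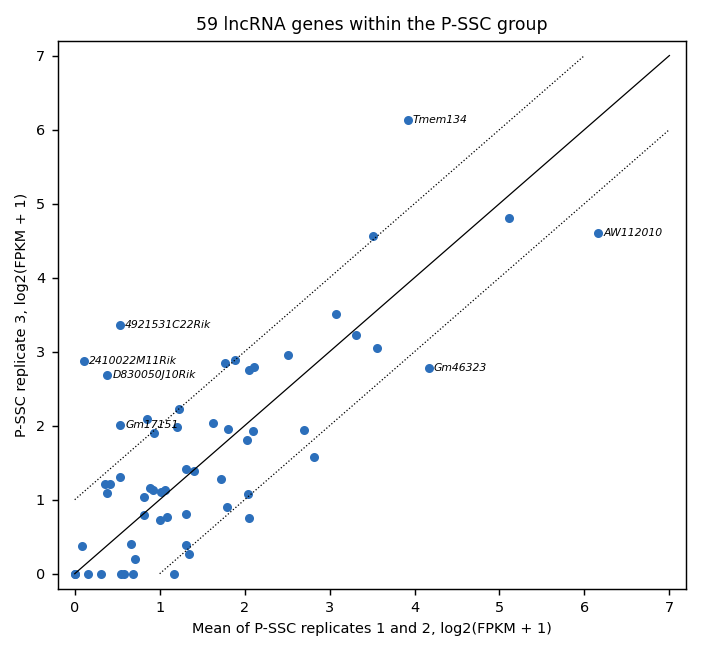
Level of the 59 lncRNA genes in P-SSC replicate 3 against the mean of P-SSC replicates 1 and 2, both as log2(FPKM + 1). The solid line marks equal levels and the dotted lines a difference of 1, and the genes farthest above it are 4921531C22Rik (2.82), 2410022M11Rik (2.76), D830050J10Rik (2.30) and Tmem134 (2.21).

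Coding genes that neighbour a member were taken by position where they were also tested. Gm3924 and Gcat, an enzyme of threonine breakdown that lies 7246 bases away, both lay above the BM-MSC libraries in every P-SSC library: Gm3924 was at 4.47, 2.12 and 1.12 FPKM against 0.0967, 0 and 0, and Gcat at 8.004, 9.20 and 5.80 against 1.98, 0.593 and 1.55. Gm3924 is in the set only through its P-SSC libraries, so its difference is given with no test. The log2 fold change of Gcat was 1.90 (adjusted p = 0.0021 from limma). In graft P-SSCs Gm3924 was at 0, 0 and 0.0910 FPKM, and the log2 fold change of Gcat against P-SSCs was -0.41 and was not called. 3110056K07Rik, head to head with the chromatin gene Arid4a at 158 bases, was at 5.22, 5.49 and 4.10 FPKM in BM-MSCs and at 0.892, 0.898 and 1.19 in P-SSCs. It entered the set through BM-MSCs and is given with no test. Arid4a was at 4.84, 3.32 and 5.17 against 7.22, 2.10 and 3.63 FPKM and was not called. Smagp, which lies 6229 bases from C330013E15Rik, was 4.41 to 5.99 FPKM in BM-MSCs and 0 to 0.682 in P-SSCs (-2.37, adjusted p = 0.000146), and C330013E15Rik was not called. The cyclin gene Ccnd2 was higher in P-SSCs (0.95, adjusted p = 0.00249), and 9330179D12Rik, antisense to it, was not called (0.20, 95% confidence interval -0.95 to 1.35). Edem3 and Ankrd54, near 2810414N06Rik and Gm3924, were at 7.07 and 43.3 FPKM in P-SSC replicate 3 and at no more than 0.141 and 0.661 in the other P-SSC libraries.

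Coding genes that work with lncRNAs were few in the table, and their counts stand beside the shares of all genes called, 9.8% higher and 14.4% lower in P-SSCs against BM-MSCs, 22.6% and 11.5% in graft P-SSCs against P-SSCs, and 25.7% and 16.2% in graft P-SSCs against BM-MSCs. Of the 3 tested of 30 listed speckle and paraspeckle protein genes, none was called between P-SSCs and BM-MSCs, and 2 were higher in graft P-SSCs than in P-SSCs: Hnrnpk rose from a mean of 406 to 746 FPKM (log2 fold change 0.88, adjusted p = 0.0107 from limma) and Hnrnph1 from 26.1 to 51.2 FPKM (0.99, adjusted p = 0.0265). Of the 2 tested snoRNP assembly genes, Shq1 was lower in P-SSCs than in BM-MSCs (-1.17, adjusted p = 0.0307) and both Shq1 and Ruvbl1 were higher in graft P-SSCs than in P-SSCs (1.46 and 0.62). Of the 3 tested genes of nonsense-mediated decay, Casc3 was higher in graft P-SSCs than in BM-MSCs (2.96, adjusted p = 0.00288). Of 9 tested Polycomb and Xist partner genes, none was called between P-SSCs and BM-MSCs, and none between graft P-SSCs and BM-MSCs. In graft P-SSCs against P-SSCs 2 were higher and 1 lower, shares near those of all genes in that comparison. Of 7 tested imprinted coding genes, 2 were higher and 1 lower in P-SSCs than in BM-MSCs, and Grb10, a growth inhibitor, was at a mean of 35.2, 71.7 and 195 FPKM in BM-MSCs, P-SSCs and graft P-SSCs, called higher at each step. The 7 tested cell cycle genes were lower in P-SSCs than in BM-MSCs and higher in graft P-SSCs than in either group.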

How the data were processed

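RNA from 9 samples of sorted mouse cells was sequenced. The authors deposited FPKM, fragments of a gene relative to transcript length and to all fragments of the library, and nothing else was used to normalize them. Per the submitters' processing notes, the tools were CASAVA, fastp, STAR 2.6.1d and featureCounts 1.5.0-p3 on GRCm38, and the annotation release is not given in the sources used here. Groups and replicate numbers came from the sample titles. The members and gene lists were chosen with earlier results of these data known. P-values measure the spread between libraries.

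FPKM were changed to log2(FPKM + 1). The 1948 genes with at least 1 FPKM in at least 3 of the 9 libraries were fitted in a single model of all libraries with limma 3.58.1 (lmFit, contrasts.fit, eBayes with a trend) in R 4.3.3, with Benjamini-Hochberg adjustment over all genes and a threshold of 0.05. Fold changes on this scale understate those of low genes. With 3 libraries against 3, an exact permutation test could not give a p below 0.1. The fit was also run on simulated data, and the outcome is not reported here.

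Whole fragments were recovered (within 0.02) by multiplying with the library total and the integer part of the mean transcript length in GENCODE M21 for 57 of the 59 members, with the length column for 1 and with the shortest length that gave whole numbers for Malat1, and for 97.2% of the genes tested. Limits from counts cover counting error only. Promoters and microRNAs came from RefSeq (GRCm38.p6), and coordinates and neighbours from GENCODE M21 on GRCm38.

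The members named were those on the noncoding lists, those of the 10 highest means, and in each comparison up to 6 called increases and 6 called decreases whose libraries did not overlap and whose higher group had a mean of 5 FPKM or more. Coding neighbours and up to 3 genes of each coding list were also named. The result for 1 coding neighbour is not reported here. Others were chosen by position or after their values were seen.

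The alternatives were another pseudocount, filter, scaling or set of libraries, a replicate block, no trend, and the omission of each library. Limma voom on the recovered fragments and a correction for the GC content of the first 300 bases of the longest transcript were chosen after seeing the data.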

Additional observations from a re-analysis of the deposited data

How the results depend on the processing

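Of the called members not assigned to 1 group, 6 of 9 (P-SSCs against BM-MSCs), 4 of 4 (graft P-SSCs against P-SSCs) and 7 of 9 (graft P-SSCs against BM-MSCs) were called in every setting that tested them, and none changed sign. Some of them still passed the threshold only with libraries of the group in which they were high. With a filter of 5 FPKM in 3 libraries, which left 13 members to test, 5, 5 and 6 were called (38.5%, 38.5% and 46.2%, against 27.0%, 42.6% and 51.8% of all genes). Fitting only the 2 groups compared gave 14, 16 and 30 (23.7%, 27.1% and 50.8%, against 16.6%, 33.1% and 54.8%). Leaving out each library gave 16 to 22, 10 to 17 and 15 to 29 called members, the highest without P-SSC replicate 3 in each (37.3%, 28.8% and 49.2%, against 30.4%, 45.8% and 53.3%). The replicate block gave 17, 11 and 19 (28.8%, 18.6% and 32.2%, against 22.6%, 31.9% and 38.8%). Same-numbered libraries did not deviate together (mean r = 0.0226 for BM-MSCs with P-SSCs, -0.259 for P-SSCs with graft P-SSCs), so the numbers were not taken to pair samples, and apart from Snhg20 in P-SSCs against BM-MSCs (adjusted p = 0.0538) the block changed no call of a named member. GC correction gave 17, 10 and 23 (28.8%, 16.9% and 39.0%, against 25.1%, 34.6% and 43.6%) and limma voom 16, 12 and 20 (27.1%, 20.3% and 33.9%, against 23.3%, 34.6% and 41.2%). The median of all genes in graft P-SSCs against P-SSCs, 0.26, became 0.02 with median of ratios scaling, -0.08 with quantile normalization and 0.16 with the same sum in each library, and against BM-MSCs 0.28 became 0.08, -0.01 and 0.27.

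The values that changed sign were all of members not called, and the cause was not tested. In P-SSCs against BM-MSCs, 2900097C17Rik was at 0.043 with quantile normalization and 0.036 with the same sum (log2 scale), and leaving out each library gave -0.55 to 0.033 for Malat1, -0.46 to 0.29 for 2900097C17Rik, -0.073 to 0.49 for Dubr and -0.26 to 0.93 for Airn. In graft P-SSCs against P-SSCs, 2900097C17Rik was at -0.027 with quantile normalization and -0.033 with GC correction. Snhg15 was at -0.17 with median of ratios scaling, -0.34 with quantile normalization and -0.0039 with the same sum, and Dubr at -0.12 with median of ratios scaling and -0.26 with quantile normalization. Leaving out each library gave -0.047 to 0.32 for Snhg15 and -0.21 to 0.35 for Dubr. In graft P-SSCs against BM-MSCs, 2900097C17Rik was at -0.37 with GC correction, Dubr at -0.064 with quantile normalization and Airn at 0.16 with a pseudocount of 0.1, 0.21 with limma voom and 0.22 with GC correction, and leaving out each library gave -0.72 to 0.48 for Airn. The depth was low for many members, 24 of which had a median under 20 fragments.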
